A study of Rattus norvegicus with 12 samples.

Results

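The collagen genes of the rat ovary were taken from RNA-seq of whole ovaries by their gene names, as every gene named Col, a type number, the letter a and a chain number. They came to 43 of the 19730 genes in the deposited table, with 11 coding for fibrillar collagens, 6 for the type IV collagens of basement membranes and 26 for other collagens. All 12 rats were female wild type Sprague Dawley rats at 15 weeks of age, and 1 ovary library per rat was sequenced, with 4 rats in each of 3 groups, so that p-values measure the spread between these rats. Control rats were untreated and ate standard food. The PCOS group, a model of polycystic ovary syndrome, was given letrozole, an inhibitor of the enzyme that turns androgens into estrogens, for 30 days together with a high-fat diet (HFD). The PCOS-MV group was treated in the same way and then given mogroside V (MV), a sweet triterpene glycoside of monk fruit, for 30 days. By the paper, all rats were killed when the treatment period ended. The PCOS ovaries too were thus collected after the MV period, and not when the stated dosing with letrozole stopped. No group here received letrozole, HFD or MV alone. Rats of the PCOS model had been selected by vaginal smears that no longer cycled, and the stage of the cycle at collection was not given in the sources used here.

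Collagens are proteins of 3 chains wound into a triple helix and are the main fibres and sheets of the extracellular matrix. Fibrillar collagens assemble into the fibrils of the ovarian stroma, capsule and theca. Type IV collagen forms a network in basement membranes, which in the ovary surround each follicle and each vessel. The chains of Col4a1 and Col4a2 occur together in nearly all basement membranes, whereas those of Col4a3, Col4a4, Col4a5 and Col4a6 form other networks with a narrower distribution.

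Levels are given as FPKM, fragments per kilobase of transcript scaled to the mapped fragments of the library, which can be compared between genes because they are per length. The test was limited to genes that averaged 1 FPKM or more across the 12 libraries, compared as log2(FPKM + 1) with limma, and those with a Benjamini-Hochberg adjusted p under 0.05 over the 13430 genes tested were called. The read depth of the libraries is unknown. A rough estimate from the steps between the lowest values placed it between 0.917 and 1.12 times that of Control replicate 1. The estimate was sought only near equal depth and rested on 4.3% to 7.6% of the low values compared, so it does not show that depths were equal. Markers of granulosa cells, theca cells and oocytes were detected in every library. Control replicate 3 stood apart, with the lowest mean correlation with its own group of the 12 libraries (r = 0.962) and with 38.1 FPKM of Krt18 and 32.3 FPKM of Epcam, markers of epithelium, where the other Control libraries had at most 3.01 and 2.90 FPKM. The summed level of 6 adipocyte markers was 25.8 to 88.2 FPKM in Control, 14.2 to 25.7 FPKM in PCOS and 10.7 to 17.3 FPKM in PCOS-MV. In whole ovaries, fewer cells of a type and less RNA per cell cannot be told apart.

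Of the 43 collagen genes, 28 reached the minimum mean, namely 8 fibrillar, all 6 type IV and 14 others. Between PCOS and Control, 5 of the 28 were higher in PCOS and 11 were lower (limma, adjusted p under 0.05), where 11.9% of all genes tested were higher and 15.6% were lower. The median log2 fold change of the 28 genes was −0.30, beside −0.03 over all genes tested. The 4 PCOS values lay wholly above or wholly below the 4 Control values for 16 of the 28 genes, as for 31.0% of all genes tested. Between PCOS-MV and PCOS, 12 of the 28 were higher in PCOS-MV and 5 were lower, where 14.3% of all genes tested were higher and 11.4% lower. The median log2 fold change was 0.40, beside 0.03 over all genes, and the groups did not overlap for 15 of the 28 genes, as for 30.0% of all genes. Both comparisons use the same 4 PCOS libraries. Without Control replicate 3, 5 collagen genes were higher and 10 lower in PCOS. Without PCOS-MV replicate 3, which had the lowest summed fibrillar collagen of its group, 16 were higher and 5 lower in PCOS-MV than in PCOS. With any other single library of these groups left out instead, 9 to 10 were higher and 5 lower. The shares of all genes called in these fits were not computed.

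**Figure D1:**
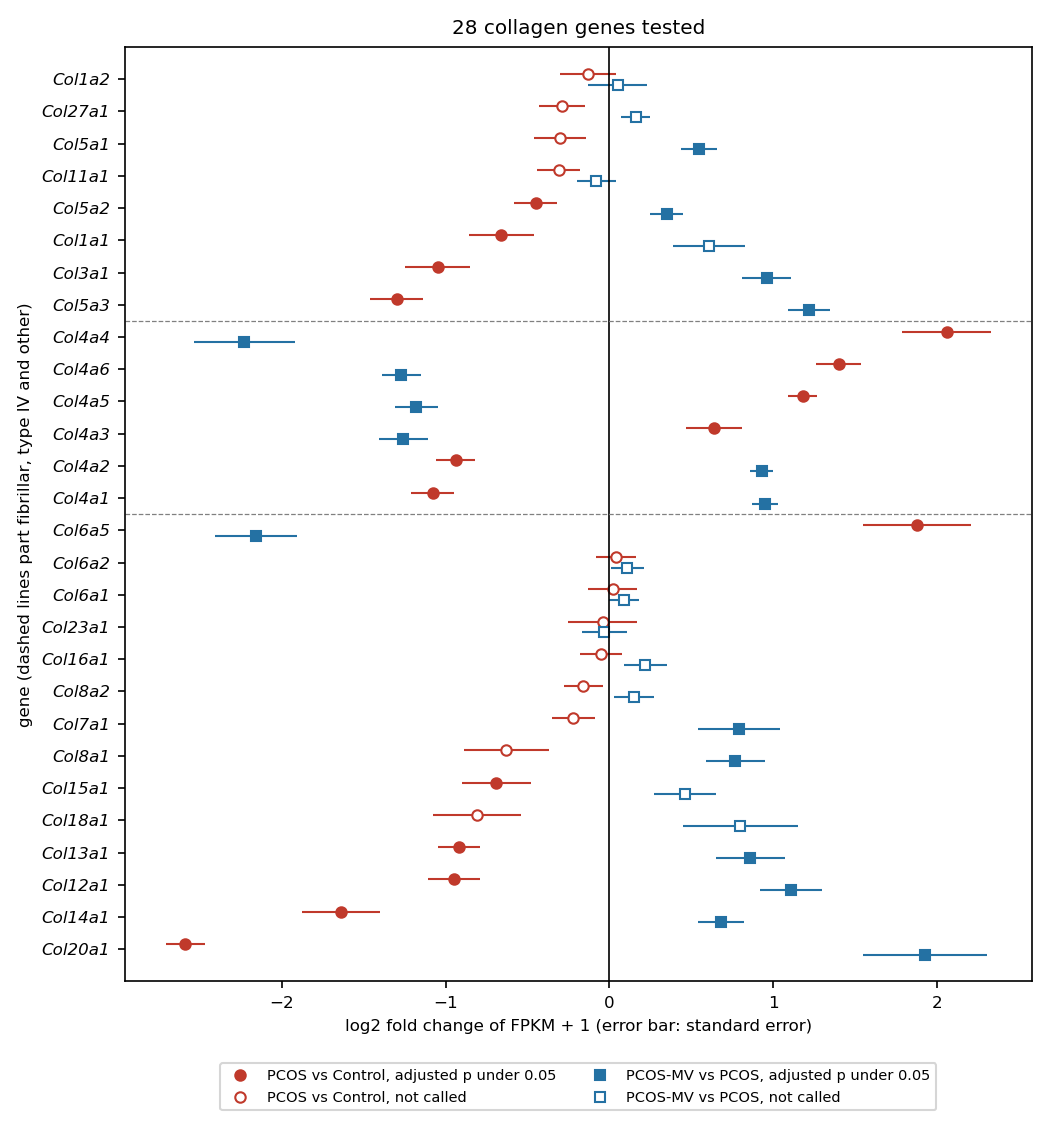
Log2 fold change of FPKM + 1 (x axis) of the 28 collagen genes tested (y axis), for PCOS vs Control (circles) and PCOS-MV vs PCOS (squares), with standard errors as bars and filled symbols for genes with an adjusted p under 0.05. The 6 type IV genes are filled in both comparisons, with Col4a3 to Col4a6 and Col6a5 to the right of 0 in PCOS vs Control and Col4a1 and Col4a2 to the left.

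The 6 type IV genes were called in each comparison, beside 27.4% and 25.7% of all genes tested, but in opposite directions within the family. The share of all genes called in both comparisons was not computed. Col4a1 and Col4a2 fell to close to 0.5 times their Control level in PCOS, while Col4a3, Col4a4, Col4a5 and Col4a6 rose, Col4a4 most of all. In PCOS-MV the first pair was higher and the other 4 genes were lower than in PCOS. In the RefSeq annotation of the rat build GRCr8 the 6 genes lie as 3 head-to-head pairs, each pair transcribed away from a shared stretch. Col4a1 (plus strand) and Col4a2 (minus strand) start 77 bp apart on chromosome 16, Col4a3 (plus) and Col4a4 (minus) 413 bp apart on chromosome 9, and Col4a5 (plus) and Col4a6 (minus) 1415 bp apart on chromosome X. In the deposited coordinates, of an unstated build, Col4a1 started at 83522162 and Col4a2 at 83438561. Col4a5 started there at 112769645 and Col4a6 at 112473822. For these pairs the RefSeq starts are thus closer together than those of the measured gene models. Of the 27457 genes in the table of start sites, 11.06% had a gene starting on the opposite strand and pointing away within 1500 bp.

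The stretches next to the RefSeq starts are shown because the genes of each pair lie on either side of them and changed in the same direction. They are RefSeq sequence of GRCr8, written 5′ to 3′ on the strand of the named gene, with GC boxes (GGGCGG) and CCAAT boxes (CCAAT) in capitals on either strand, so that the reverse complement of a match is also in capitals. None of the 5 stretches held a CCAAT box, so the capitals are all GC boxes. The 250 bases before Col4a1 and those before Col4a2 each held 1 CCAAT box, outside the stretch shown here. The windows of Col4a3 and Col4a4 overlap in part. The first line is the whole stretch between the starts of Col4a1 and Col4a2 (chr16:84885521-84885596), and the others are the 250 bases before the start of Col4a3 (chr9:91323740-91323989), Col4a4 (chr9:91323578-91323827), Col4a5 (chrX:109907109-109907358) and Col4a6 (chrX:109905945-109906194).
Col4a1 to Col4a2: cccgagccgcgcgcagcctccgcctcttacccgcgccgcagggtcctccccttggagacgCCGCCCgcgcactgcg
Col4a3: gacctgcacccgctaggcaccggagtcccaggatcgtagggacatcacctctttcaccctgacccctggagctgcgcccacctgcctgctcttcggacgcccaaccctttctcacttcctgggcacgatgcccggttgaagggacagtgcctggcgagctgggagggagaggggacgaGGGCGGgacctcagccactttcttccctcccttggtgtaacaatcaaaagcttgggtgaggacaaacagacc
Col4a4: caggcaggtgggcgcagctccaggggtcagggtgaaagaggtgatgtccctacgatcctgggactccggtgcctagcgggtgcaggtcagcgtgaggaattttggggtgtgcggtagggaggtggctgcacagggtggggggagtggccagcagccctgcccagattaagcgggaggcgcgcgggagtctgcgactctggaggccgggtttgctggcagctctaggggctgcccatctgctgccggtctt
Col4a5: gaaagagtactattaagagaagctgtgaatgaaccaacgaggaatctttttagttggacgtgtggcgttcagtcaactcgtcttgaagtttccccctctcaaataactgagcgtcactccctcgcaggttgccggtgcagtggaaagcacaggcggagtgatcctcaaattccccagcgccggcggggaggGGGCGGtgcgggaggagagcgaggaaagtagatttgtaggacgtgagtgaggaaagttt
Col4a6: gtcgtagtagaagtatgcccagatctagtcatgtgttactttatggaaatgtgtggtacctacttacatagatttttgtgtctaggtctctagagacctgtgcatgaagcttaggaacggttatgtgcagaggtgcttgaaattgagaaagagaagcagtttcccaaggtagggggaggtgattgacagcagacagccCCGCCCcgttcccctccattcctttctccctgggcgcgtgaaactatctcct
The stretch between Col4a1 and Col4a2 was 78.95% G and C, while the 250 bases before Col4a6 were 48.0% G and C. Each window except that of Col4a4 held a GC box, which is a description of the letters and not of binding. Of the collagen genes, 34 of 43 were matched in the RefSeq table of promoters, and 19 of them held a GC box in the 250 bases before the start, where 30.47% of 33469 windows did. A CCAAT box was found in 11, a TATAA in 7 and an androgen receptor half-site AGAACA in 4, beside 34.02%, 23.97% and 17.52% of all windows. All motifs were sought on both strands. The median share of G and C was 59.2% in the collagen windows and 51.2% in all windows.

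Col4a1, with Col4a2 the source of the common basement membrane network, measured 229.8, 197, 148 and 173 FPKM in Control replicates 1 to 4, 86.9, 82.2, 85.0 and 93.0 FPKM in PCOS, and 179.8, 169.6, 171 and 153 FPKM in PCOS-MV. All PCOS values were below all others. The mean was 187 ± 34.8 (SD, n = 4) in Control, 86.8 ± 4.56 in PCOS and 168 ± 11.1 in PCOS-MV, a log2 fold change of −1.08 (SE 0.13, limma adjusted p = 0.000487) in PCOS vs Control and of 0.95 (SE 0.08, limma adjusted p = 0.000139) in PCOS-MV vs PCOS. For Col4a1, as for each gene described here whose groups did not overlap, the exact two-sided permutation p was 0.0286, the smallest that 4 rats against 4 can give. Col4a2 measured 148, 129, 101 and 114 FPKM in Control, 63.9, 59.5, 60.8 and 68.2 FPKM in PCOS, and 120.4, 128, 119 and 116 FPKM in PCOS-MV. Its PCOS values too were below all others, with a log2 fold change of −0.94 (SE 0.12, limma adjusted p = 0.000651) and then of 0.93 (SE 0.07, limma adjusted p = 0.000117). By mean FPKM, Col4a1 ranked 234 of the 19730 genes in Control, 622 in PCOS and 276 in PCOS-MV.

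Col4a4 showed the largest change of the family. It measured 9.66, 10.2, 11.6 and 13.1 FPKM in Control, 75.2, 61.3, 27.6 and 46.6 FPKM in PCOS, and 8.30, 7.97, 9.12 and 14.9 FPKM in PCOS-MV. The PCOS mean was 4.73 times that of Control, and the lowest PCOS library was above the highest of the other groups. The log2 fold change was 2.06 (SE 0.27, limma adjusted p = 0.000822) in PCOS vs Control and then −2.23 (SE 0.31, limma adjusted p = 0.00151) in PCOS-MV vs PCOS. Col4a3, whose chain is the Goodpasture antigen, measured 3.27, 4.66, 5.51 and 6.73 FPKM in Control, 9.50, 7.81, 7.60 and 7.97 FPKM in PCOS, and 2.96, 2.43, 4.08 and 2.12 FPKM in PCOS-MV. Its PCOS values were above all others. The log2 fold change of Col4a3 was 0.64 (SE 0.17, limma adjusted p = 0.0245) and then −1.26 (SE 0.15, limma adjusted p = 0.000813). The rise of Col4a3 was no longer called without Control replicate 2 (limma adjusted p = 0.0615), PCOS replicate 1 (0.0641), PCOS replicate 2 (0.0517) or PCOS replicate 4 (0.0559). The ratio of Col4a4 to Col4a3 was 1.95 to 2.96 in Control, 3.63 to 7.92 in PCOS and 2.24 to 7.03 in PCOS-MV.

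Col4a5, the chain that the other networks share, measured 28.8, 29.6, 32.9 and 32.9 FPKM in Control, 73.7, 63.5, 80.8 and 68.2 FPKM in PCOS, and 30.3, 28.1, 40.1 and 26.4 FPKM in PCOS-MV. Its log2 fold change was 1.18 (SE 0.09, limma adjusted p = 5.28e-05) and then −1.18 (SE 0.13, limma adjusted p = 0.000646). Col4a6 measured 4.33, 5.84, 7.18 and 4.52 FPKM in Control, 17.5, 15.3, 15.7 and 14.9 FPKM in PCOS, and 6.76, 5.23, 7.22 and 4.94 FPKM in PCOS-MV. The log2 fold change of Col4a6 was 1.40 (SE 0.14, limma adjusted p = 0.000181) and then −1.27 (SE 0.12, limma adjusted p = 0.000287). In both genes the PCOS libraries were apart from the other 8. The ratio of Col4a5 to Col4a6 was 4.58 to 7.28 in Control, 4.15 to 5.14 in PCOS and 4.48 to 5.56 in PCOS-MV, so that these ranges overlapped.

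**Figure D2:**
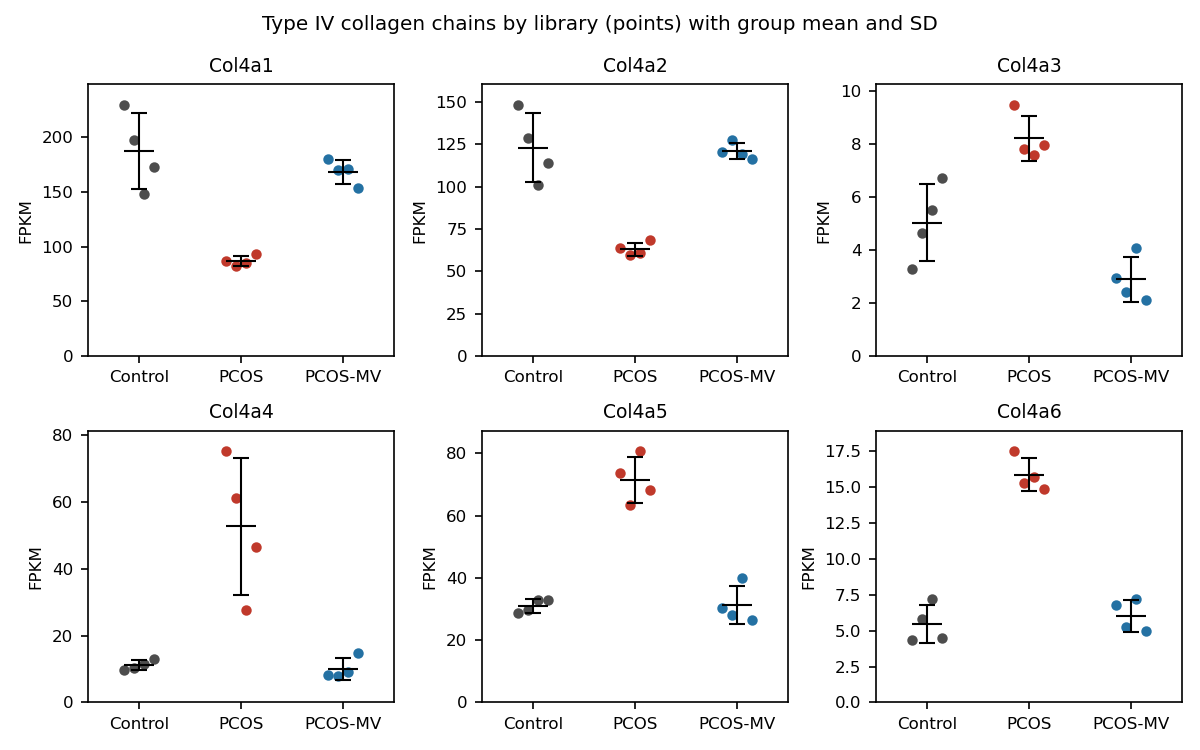
FPKM (y axes, from 0) of the 6 type IV collagen genes in each library (points) of the 3 groups (x axes), with the group mean and SD as black bars. The 4 PCOS libraries lie below the other 8 for Col4a1 and Col4a2 and above them for Col4a3 to Col4a6.

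The makeup of the type IV messages in the PCOS libraries lay outside the range of the other 8. Summed over Col4a3 to Col4a6, the level was 46.0 to 57.2 FPKM in Control, 132 to 176 FPKM in PCOS and 43.8 to 60.5 FPKM in PCOS-MV. Summed over Col4a1 and Col4a2, it was 249 to 378 FPKM in Control, 142 to 161 FPKM in PCOS and 269.7 to 300.2 FPKM in PCOS-MV. The 4 chains Col4a3 to Col4a6 thus made up 10.9% to 18.6% of the type IV FPKM in Control, 46.1% to 53.9% in PCOS and 12.8% to 17.3% in PCOS-MV. These sums and shares are a description of chosen genes and were not tested. The sum of all 6 type IV genes moved less, with 307 to 424 FPKM in Control, 277 to 327 FPKM in PCOS and 318 to 351 FPKM in PCOS-MV.

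Markers of cells that lie on basement membranes were called in part and not all in one direction, beside 11.9% of all genes higher and 15.6% lower in PCOS than in Control, and 14.3% higher and 11.4% lower in PCOS-MV than in PCOS. Of 7 endothelial markers 1 was higher and 5 were lower in PCOS than in Control, and 3 were higher and 0 lower in PCOS-MV than in PCOS. Their summed level was 119 to 146 FPKM in Control, 75.3 to 90.7 FPKM in PCOS and 103 to 135 FPKM in PCOS-MV. Of 8 granulosa cell markers 5 were higher and 0 lower in PCOS than in Control, and 0 were higher and 3 lower in PCOS-MV than in PCOS, with sums of 634 to 871, 1091 to 1540 and 624 to 1081 FPKM. Most of that sum was Inha and Inhba. Amh and Nr5a2 went the other way in PCOS vs Control but were not called (log2 fold change −0.81 and −0.77, limma adjusted p = 0.0738 and 0.101). Of 5 theca and interstitial markers 3 were higher (Cyp17a1, Insl3 and Lhcgr) and 2 lower (Cyp11a1 and Ptch1) in PCOS, and 0 were higher and 3 lower in PCOS-MV than in PCOS, with sums of 1380 to 3136, 2361 to 4473 and 798 to 2854 FPKM. Most of the sum in Control and PCOS-MV was Cyp11a1. Insl3 had means of 5.70 FPKM in Control, 1032 in PCOS and 7.89 in PCOS-MV, and Cyp17a1 of 34.6, 1190 and 37.4 FPKM. Lhcgr is also in the luteal list below. No marker of these lists was under 0.1 FPKM in all libraries. Of 6 luteal markers 2 were higher (Lhcgr and Parm1) and 3 lower (Star, Ptgfr and Scarb1) in PCOS, and 2 were higher and 1 lower in PCOS-MV than in PCOS. Their sum, most of it Star and Scarb1, was 2979 to 5059 FPKM in Control, 1167 to 2284 FPKM in PCOS and 2206 to 4599 FPKM in PCOS-MV. The part of these cell types in the type IV results was not tested.

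Among the fibrillar genes, Col3a1 and Col5a3 were called in both comparisons with no overlap between groups, while Col1a2 was not called in either. Of the 8 genes tested, 0 were higher and 4 were lower in PCOS than in Control (Col1a1, Col3a1, Col5a2 and Col5a3), and 4 were higher and 0 lower in PCOS-MV than in PCOS (Col3a1, Col5a1, Col5a2 and Col5a3). The share called was 50.0% in each comparison, beside 27.4% and 25.7% of all genes tested. The median log2 fold change was −0.38 and then 0.45. Col3a1, the chain of type III collagen of thin reticular fibrils, measured 413, 329.8, 273 and 199 FPKM in Control, 133, 156, 130.2 and 148 FPKM in PCOS, and 333, 326, 214 and 248 FPKM in PCOS-MV. Its PCOS values were below all others. The log2 fold change was −1.05 (SE 0.20, limma adjusted p = 0.00556) and then 0.96 (SE 0.15, limma adjusted p = 0.00296), and Col3a1 ranked 126 of all genes by mean FPKM in Control, 350 in PCOS and 151 in PCOS-MV.

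Type I collagen, the main fibril of most connective tissue, is built of Col1a1 and Col1a2 chains. Col1a1 measured 362, 342, 275 and 184 FPKM in Control, 186, 186, 165 and 176 FPKM in PCOS, and 372, 333, 167 and 262 FPKM in PCOS-MV. Control replicate 4 and PCOS-MV replicate 3 lay within the PCOS range, and the groups overlapped in both comparisons. The log2 fold change in PCOS vs Control was −0.66 (SE 0.20, limma adjusted p = 0.0373, exact permutation p = 0.0857), and it was not called without any one of Control replicates 1, 2 and 3 or of PCOS replicates 1 to 4, with limma adjusted p from 0.0551 to 0.0955, nor with no minimum level (0.0668), with 1 model for all 12 libraries (0.0717) or with rescaled libraries (0.0528). Between PCOS-MV and PCOS the change was 0.61 (SE 0.22, limma adjusted p = 0.0813), and without PCOS-MV replicate 3 it was 0.84 (limma adjusted p = 0.00306). Col1a2 measured 283, 236, 226 and 155 FPKM in Control, 205, 184, 199 and 215 FPKM in PCOS, and 262, 233, 142 and 211 FPKM in PCOS-MV. The change was −0.13 (SE 0.17, limma adjusted p = 0.587) and then 0.05 (SE 0.18, limma adjusted p = 0.873).

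Although neither chain of type I collagen was separated by group on its own, their ratio was. The ratio of Col1a1 to Col1a2 was 1.28, 1.45, 1.22 and 1.19 in Control, 0.909, 1.01, 0.830 and 0.821 in PCOS, and 1.42, 1.43, 1.18 and 1.24 in PCOS-MV. The highest PCOS ratio was below the lowest of the other 8 libraries. The ratio of Col3a1 to Col1a2 separated the groups as well, with 1.21 to 1.46 in Control, 0.651 to 0.849 in PCOS and 1.17 to 1.51 in PCOS-MV. In contrast, the ratio of Col6a1 to Col6a2, a pair of chains of one type VI molecule, was 1.14 to 1.38, 1.11 to 1.33 and 1.11 to 1.28. The ratio of Col5a1 to Col5a2 was 1.889 to 2.539 in Control, 2.173 to 2.467 in PCOS and 2.541 to 2.827 in PCOS-MV, so that PCOS lay within the Control range. The ratio of Col4a1 to Col4a2 was 1.465 to 1.549, 1.360 to 1.397 and 1.316 to 1.494, with PCOS apart from Control but not from PCOS-MV. These ratios were chosen as chains of the same molecule or of shared fibrils and were not tested.

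**Figure D3:**
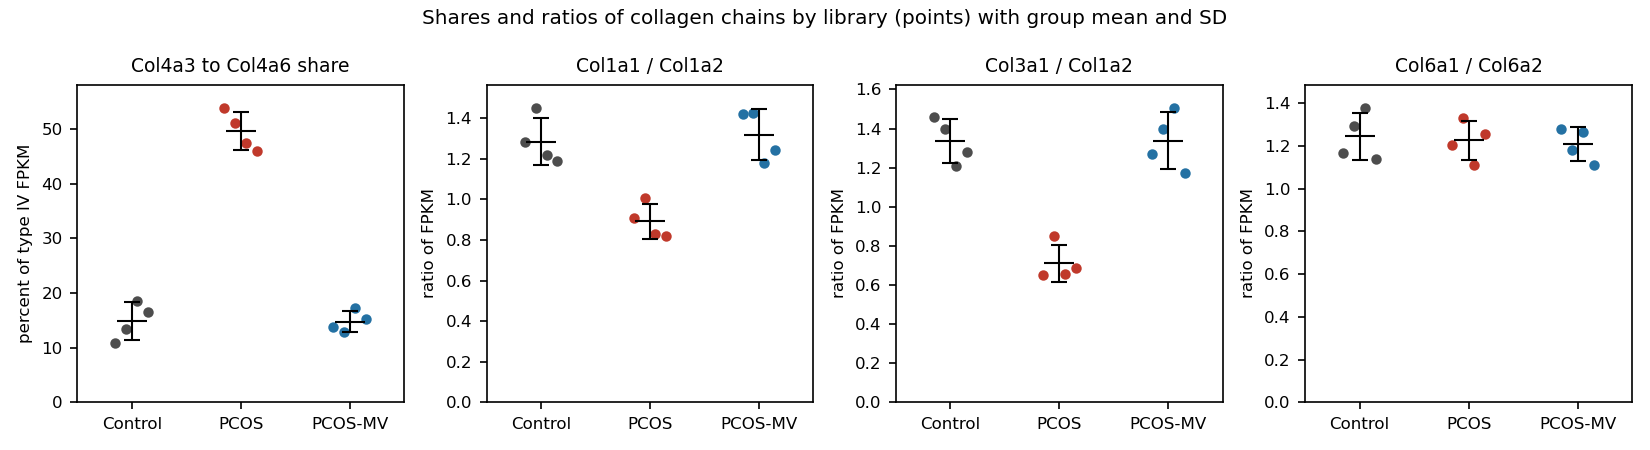
The share of type IV FPKM in Col4a3 to Col4a6 (percent) and the FPKM ratios of Col1a1 to Col1a2, Col3a1 to Col1a2 and Col6a1 to Col6a2 (y axes, from 0) in each library (points) of the 3 groups (x axes), with the group mean and SD as black bars. In the first 3 panels the 4 PCOS libraries are apart from the other 8, and in the last the groups overlap.

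Type V collagen is built into fibrils of type I collagen and sets their width, and Col5a3 is its least common chain. Col5a3 measured 4.02, 2.87, 2.15 and 2.34 FPKM in Control, 0.537, 0.546, 0.363 and 0.691 FPKM in PCOS, and 3.06, 3.08, 2.01 and 2.22 FPKM in PCOS-MV. The PCOS mean was 0.188 times that of Control. That fall is understated by the log2 fold change of −1.30 (SE 0.16, limma adjusted p = 0.000670), because the added 1 FPKM weighs on low values. Between PCOS-MV and PCOS the change was 1.22 (SE 0.13, limma adjusted p = 0.000502). Col5a1 measured 66.9, 71.2, 47.4 and 43.5 FPKM in Control, 43.9, 46.3, 42.6 and 48.2 FPKM in PCOS, and 69.8, 77.2, 54.2 and 67.4 FPKM in PCOS-MV. It was not called in PCOS vs Control (log2 fold change −0.30, SE 0.16, limma adjusted p = 0.191), and was higher in PCOS-MV than in PCOS with no overlap (0.55, SE 0.11, limma adjusted p = 0.00767). Col5a2 measured 33.3, 28.1, 22.7 and 23.0 FPKM in Control, 18.2, 19.1, 17.3 and 22.2 FPKM in PCOS, and 25.8, 27.3, 21.3 and 24.3 FPKM in PCOS-MV. Its log2 fold change was −0.45 (SE 0.13, limma adjusted p = 0.0370) and then 0.35 (SE 0.10, limma adjusted p = 0.0379). The first call of Col5a2 was lost without Control replicate 1 or 2 or PCOS replicate 1, 2 or 3 (limma adjusted p 0.0583 to 0.0941) and with no minimum level (0.0584) or rescaled libraries (0.0648). The second was lost without PCOS replicate 1, 2 or 3 or PCOS-MV replicate 1, 2 or 4 (0.0700 to 0.0955) and with no minimum level (0.0512) or 1 model for all libraries (0.0688).

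Col11a1, a chain of the type XI collagen that nucleates thin fibrils, measured 27.2, 40.5, 26.2 and 34.0 FPKM in Control, 27.2, 23.8, 24.8 and 25.4 FPKM in PCOS, and 25.0, 22.5, 29.2 and 19.6 FPKM in PCOS-MV. Col27a1 measured 2.01, 3.26, 3.47 and 2.66 FPKM in Control, 2.33, 2.14, 1.90 and 2.07 FPKM in PCOS, and 2.49, 2.62, 2.76 and 2.04 FPKM in PCOS-MV. Neither was called, with limma adjusted p of 0.127 and 0.148 in PCOS vs Control and of 0.632 and 0.259 in PCOS-MV vs PCOS, except that Col27a1 was lower in PCOS without Control replicate 1 (log2 fold change −0.40, limma adjusted p = 0.0310). Summed over the 11 fibrillar genes, the level was 1192, 1055, 876 and 645 FPKM in Control, 616, 619, 581 and 638 FPKM in PCOS, and 1094, 1025, 633 and 837 FPKM in PCOS-MV. The PCOS libraries were close together. PCOS-MV replicate 3 lay within their range, and Control replicate 4 just above it.

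**Figure D4:**
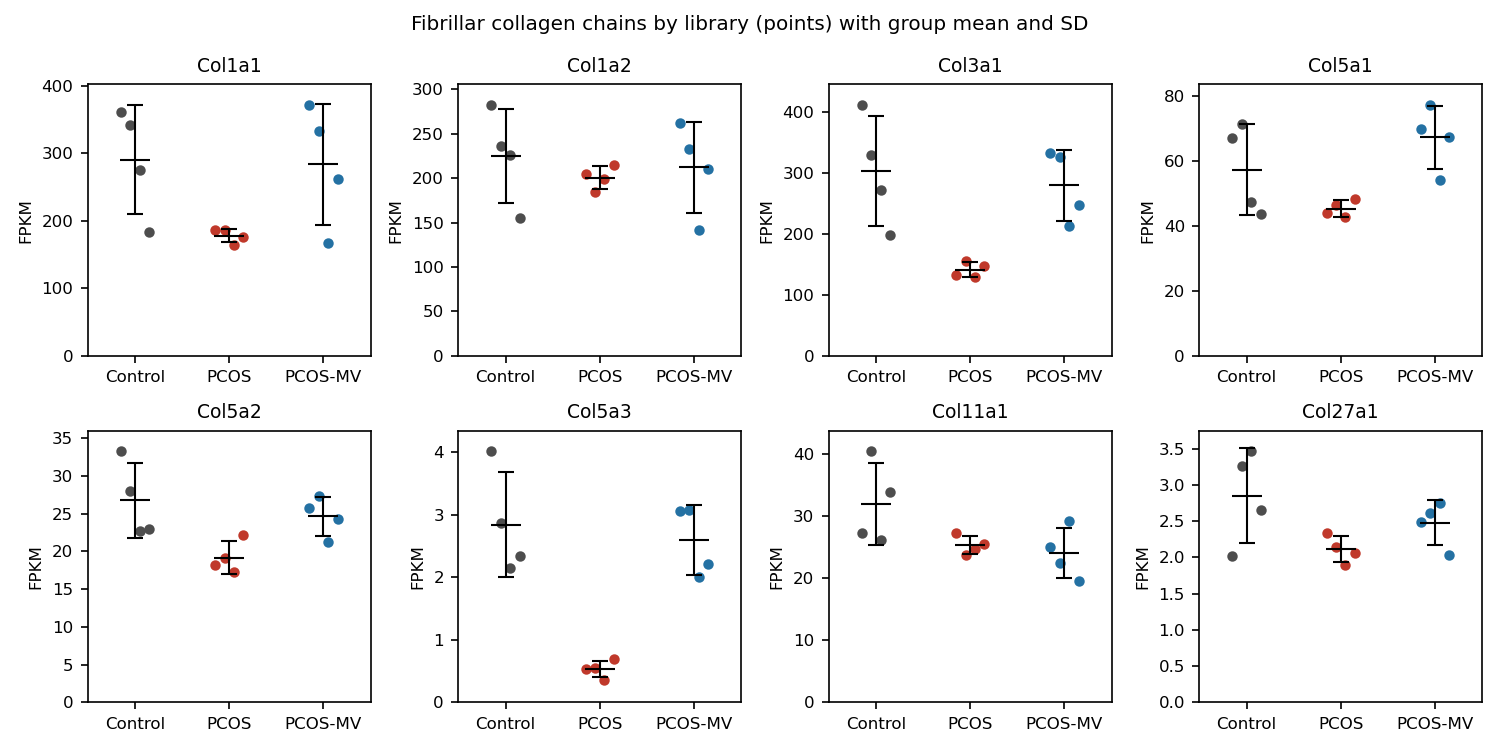
FPKM (y axes, from 0) of the 8 fibrillar collagen genes tested in each library (points) of the 3 groups (x axes), with the group mean and SD as black bars. The PCOS libraries are below the other 8 for Col3a1 and Col5a3, and lie within the spread of the other groups for Col1a2.

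Markers of the cells that make fibrils did not all move one way, with the same shares of all genes called as given for the markers above. Of 8 fibroblast and stroma markers 4 were higher and 2 lower in PCOS than in Control, and 2 were higher and 4 lower in PCOS-MV than in PCOS, with sums of 406 to 489 FPKM in Control, 424 to 491 FPKM in PCOS and 370 to 527.5 FPKM in PCOS-MV. Pdgfra, a receptor carried by stromal fibroblasts and named after its values were seen, was at 35.3 to 39.5 FPKM in Control, 64.6 to 66.8 FPKM in PCOS and 42.2 to 49.8 FPKM in PCOS-MV, opposite in direction to Col3a1. Cd34 and Mfap5 of the same list were called in the directions of Pdgfra in both comparisons. Dpt and Lum, the 2 markers lower in PCOS, were called in the directions of Col3a1 in both. Of 8 smooth muscle and pericyte markers 0 were higher and 3 lower in PCOS, and 1 was higher and 0 lower in PCOS-MV than in PCOS, with sums of 432 to 982, 503 to 632 and 405 to 727 FPKM. Without Control replicate 3 the highest Control sum was 569.6 FPKM. None of these markers was under 0.1 FPKM in all libraries, and their part in the fibrillar results was not tested.

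Of the 14 other collagen genes tested, 1 was higher and 5 were lower in PCOS than in Control, and 6 were higher and 1 lower in PCOS-MV than in PCOS, with median log2 fold changes of −0.43 and 0.57. These were 42.9% and 50.0% called, beside 27.4% and 25.7% of all genes tested. The gene that went against the rest was Col6a5, a chain that can take the place of Col6a3 in type VI collagen. Col6a5 measured 1.37, 0.849, 3.65 and 1.42 FPKM in Control, 11.8, 12.2, 5.12 and 7.75 FPKM in PCOS, and 1.52, 0.872, 1.49 and 0.938 FPKM in PCOS-MV. The PCOS libraries were above all others, with Control replicate 3 nearest. Its log2 fold change was 1.88 (SE 0.33, limma adjusted p = 0.00354) and then −2.16 (SE 0.25, limma adjusted p = 0.000663). The main type VI chains Col6a1 and Col6a2 were much higher in level and were not called. Col6a1 measured 121, 123, 135 and 81.9 FPKM in Control, 113, 122, 112 and 111 FPKM in PCOS, and 131, 112, 111 and 135 FPKM in PCOS-MV, with limma adjusted p of 0.950 and 0.486. Col6a2 was at 71.8 to 103 FPKM in Control, 88.6 to 100.4 FPKM in PCOS and 87.8 to 121 FPKM in PCOS-MV. Col6a3 itself was not analysed here.

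The FACIT collagens (fibril-associated collagens with interrupted triple helices) sit on the surface of fibrils. Of the 4 tested, the same 3 were called in each comparison, beside 27.4% of all genes in the first and 25.7% in the second. The share of all genes called in both was not computed. Col20a1 measured 12.01, 9.70, 8.84 and 8.53 FPKM in Control, 0.584, 0.732, 0.995 and 0.810 FPKM in PCOS, and 8.95, 2.49, 11.9 and 3.61 FPKM in PCOS-MV. Every PCOS library was under 1 FPKM, while PCOS-MV replicates 1 and 3 lay within the Control range and replicates 2 and 4 between it and the PCOS range. The PCOS mean was 0.0799 times that of Control, with a log2 fold change of −2.59 (SE 0.12, limma adjusted p = 7.09e-06), and the change from PCOS to PCOS-MV was 1.93 (SE 0.38, limma adjusted p = 0.00806). Col14a1 measured 3.70, 3.16, 7.68 and 3.42 FPKM in Control, 0.617, 1.09, 0.451 and 0.628 FPKM in PCOS, and 2.11, 1.76, 1.31 and 1.67 FPKM in PCOS-MV. The groups were apart in both comparisons, and PCOS-MV lay between the other groups, without overlap with either. Its log2 fold change was −1.64 (SE 0.24, limma adjusted p = 0.00142) and then 0.68 (SE 0.14, limma adjusted p = 0.00884). Between PCOS-MV and Control it was −0.96 (SE 0.23), which was not called (limma adjusted p = 0.459). Col12a1 measured 14.5, 16.6, 20.5 and 11.5 FPKM in Control, 8.29, 7.01, 6.39 and 8.48 FPKM in PCOS, and 15.8, 26.4, 13.3 and 16.0 FPKM in PCOS-MV. It was lowest in the PCOS libraries, with a log2 fold change of −0.95 (SE 0.16, limma adjusted p = 0.00324) and then 1.11 (SE 0.19, limma adjusted p = 0.00433).

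Col16a1, the fourth FACIT collagen tested, measured 14.6, 16.8, 15.7 and 10.7 FPKM in Control, 14.8, 12.5, 12.8 and 15.1 FPKM in PCOS, and 16.9, 18.5, 12.2 and 17.8 FPKM in PCOS-MV. It was not called (limma adjusted p = 0.806 and 0.261), although it was higher in PCOS-MV than in PCOS without PCOS-MV replicate 3 (log2 fold change 0.34, limma adjusted p = 0.0272). The transmembrane Col13a1 measured 2.46, 3.64, 2.77 and 3.20 FPKM in Control, 1.25, 0.896, 1.30 and 1.01 FPKM in PCOS, and 2.13, 2.51, 5.13 and 2.18 FPKM in PCOS-MV. Its PCOS values were below all others. The log2 fold change was −0.92 (SE 0.13, limma adjusted p = 0.00105) and then 0.86 (SE 0.21, limma adjusted p = 0.0188), the second not called without PCOS replicate 2 (limma adjusted p = 0.0543) or PCOS replicate 4 (0.0521). Col23a1, the other transmembrane collagen tested, was at 0.881 to 2.69 FPKM over the 12 libraries and was not called.

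The multiplexins Col15a1 and Col18a1 lie in basement membranes, and the end of the Col18a1 chain is the source of endostatin, an inhibitor of vessel growth. Col18a1 measured 87.4, 76.4, 79.3 and 69.1 FPKM in Control, 61.9, 50.4, 22.9 and 51.6 FPKM in PCOS, and 92.1, 103, 44.1 and 83.6 FPKM in PCOS-MV. Although all PCOS values were below all Control values, the log2 fold change of −0.81 (SE 0.27) missed the threshold (limma adjusted p = 0.0553), and between PCOS-MV and PCOS the change was 0.80 (SE 0.35, limma adjusted p = 0.128). It was called lower in PCOS without PCOS replicate 1 (−0.97, limma adjusted p = 0.0373) or PCOS replicate 3 (−0.51, 0.0152), and higher in PCOS-MV without PCOS-MV replicate 3 (1.06, 0.0410). Col15a1 measured 12.2, 6.29, 8.09 and 5.51 FPKM in Control, 4.87, 4.42, 3.43 and 4.90 FPKM in PCOS, and 8.28, 7.64, 4.06 and 6.42 FPKM in PCOS-MV. It was lower in PCOS (−0.69, SE 0.21, limma adjusted p = 0.0415) with no overlap, but not without Control replicate 3 or any one of PCOS replicates 1 to 4 (0.0655 to 0.106), nor with no minimum level (0.0749) or rescaled libraries (0.0563). In PCOS-MV vs PCOS it was not called (0.46, SE 0.19, limma adjusted p = 0.112), and with PCOS-MV replicate 3 left out it was (0.65, limma adjusted p = 0.0109).

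Col8a1, a short-chain collagen of vessel walls, measured 10.5, 8.08, 4.13 and 4.69 FPKM in Control, 4.88, 2.88, 3.71 and 3.89 FPKM in PCOS, and 7.84, 9.65, 5.49 and 6.32 FPKM in PCOS-MV. It was higher in PCOS-MV than in PCOS with no overlap (0.77, SE 0.18, limma adjusted p = 0.0143). In PCOS vs Control it was −0.63 (SE 0.26, limma adjusted p = 0.105), and −0.81 without Control replicate 3 (limma adjusted p = 0.0370). Its partner Col8a2 was at 1.72 to 2.91 FPKM over the 12 libraries and was not called. Col7a1, the collagen of anchoring fibrils beneath epithelia, measured 1.54, 1.66, 1.30 and 0.990 FPKM in Control, 0.963, 0.952, 1.04 and 1.12 FPKM in PCOS, and 2.03, 3.94, 1.11 and 3.65 FPKM in PCOS-MV. PCOS-MV replicate 3 lay in the PCOS range. The rise of 0.79 (SE 0.25) was at the threshold (limma adjusted p = 0.0498) and was not called without any one of PCOS replicates 1 to 4 or of PCOS-MV replicates 1, 2 and 4 (0.0641 to 0.112), nor with no minimum level (0.0845).

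**Figure D5:**
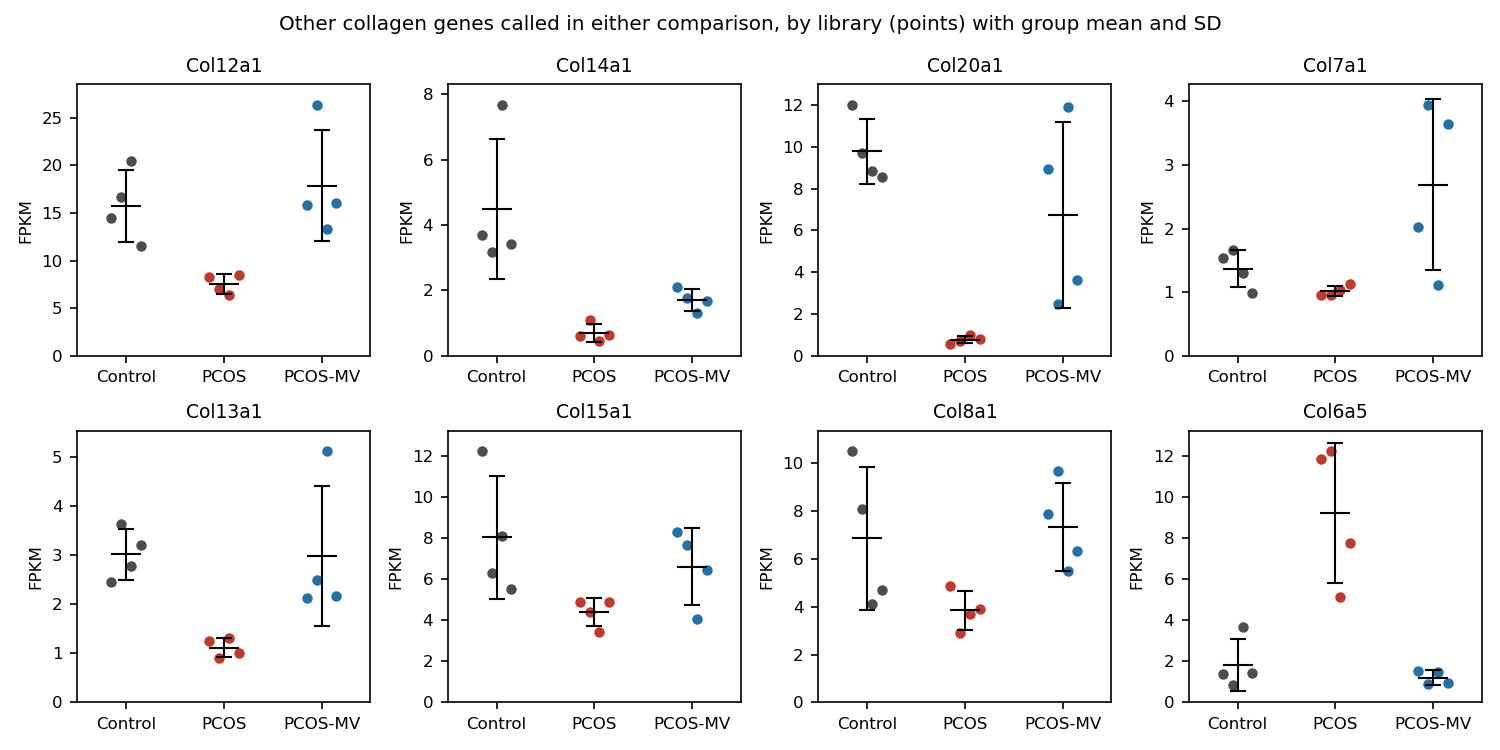
FPKM (y axes, from 0) of the 8 other collagen genes called in either comparison, in each library (points) of the 3 groups (x axes), with the group mean and SD as black bars. Col6a5 is highest in the PCOS libraries, and Col20a1, Col14a1, Col12a1 and Col13a1 are lowest in them.

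Between PCOS-MV and Control, 0 of the 28 collagen genes were called by limma, as were 0 in each alternative analysis, and 3 had an unadjusted p under 0.05. Over all 13430 genes, 1 was called, so that 0.00745% were higher and 0% lower, and 1142 had an unadjusted p under 0.05. The only collagen gene of the 28 whose groups did not overlap was Col14a1, where the groups did not overlap for 5.1% of all genes tested. A missed threshold does not show that the levels were equal. For Col4a3 the log2 fold change was −0.62 (SE 0.21, limma adjusted p = 0.532) and for Col20a1 it was −0.67 (SE 0.39, limma adjusted p = 0.647), whereas for Col4a5 it was −0.01 (SE 0.13, limma adjusted p = 0.992).

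The remaining 15 collagen genes had means of 0.00503 to 0.487 FPKM and were not tested. They were the cartilage chains Col2a1, Col9a1, Col9a2, Col9a3, Col10a1 and Col11a2, and Col6a4, Col6a6, Col17a1, Col19a1, Col22a1, Col24a1, Col25a1, Col26a1 and Col28a1. Their values were between 0 and 2.72 FPKM, the highest being Col25a1 in Control replicate 3, where the other 11 libraries were at 0 to 0.525 FPKM. Col22a1, a collagen of tissue junctions that was named after its values were seen, measured 0.206, 0.226, 0.491 and 0.338 FPKM in Control, 0.971, 1.01, 0.713 and 0.841 FPKM in PCOS, and 0.390, 0.228, 0.228 and 0.206 FPKM in PCOS-MV. The PCOS libraries were above all others. In the fit with no minimum level its log2 fold change was 0.52 (SE 0.083, limma adjusted p = 0.00521) and then −0.58 (SE 0.066, limma adjusted p = 0.00218).

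A collagen chain is hydroxylated, folded, exported, trimmed and cross-linked before it serves in a fibril. Of 53 genes listed for these steps and for proteins that bind collagen, 46 were tested, of which 4 were higher and 11 lower in PCOS than in Control, and 13 higher and 6 lower in PCOS-MV than in PCOS. The shares called in either direction were 32.6% for the first comparison and 41.3% for the second, beside 27.4% and 25.7% of all genes tested. Of the 17 genes for hydroxylation and folding, 1 was higher and 1 lower in PCOS, and 5 were higher and 1 lower in PCOS-MV than in PCOS, or 11.8% and 35.3% called beside those 27.4% and 25.7%. Serpinh1, the collagen chaperone of the endoplasmic reticulum, was at 195 to 299 FPKM in Control, 194 to 233 FPKM in PCOS and 237 to 335 FPKM in PCOS-MV. It was not called (limma adjusted p = 0.686 and 0.0620), although it was called higher in PCOS-MV than in PCOS without PCOS-MV replicate 3 (log2 fold change 0.47, limma adjusted p = 0.0222). The prolyl hydroxylase subunit P4ha1 was at 22.1 to 36.3, 23.9 to 35.6 and 26.0 to 36.1 FPKM, and the lysyl hydroxylase Plod2 at 61.6 to 101, 75.3 to 86.7 and 64.2 to 120.2 FPKM, and neither was called. P4ha2, named after its values were seen, was the gene of this step that was lower in PCOS, at 11.8 to 18.7 FPKM in Control, 6.53 to 8.81 FPKM in PCOS and 11.2 to 24.5 FPKM in PCOS-MV.

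Of the 9 genes for export and removal of propeptides, 0 were higher and 3 lower in PCOS, and 2 were higher and 0 lower in PCOS-MV than in PCOS. These 33.3% and 22.2% called were near the 27.4% and 25.7% of all genes. Adamts14, a protease that trims the front end of fibrillar procollagens, measured 2.71, 3.24, 9.27 and 5.18 FPKM in Control, 1.07, 1.11, 1.34 and 1.06 FPKM in PCOS, and 2.83, 6.53, 17.8 and 10.3 FPKM in PCOS-MV. Its PCOS libraries were below all others, with a log2 fold change of −1.39 (SE 0.29, limma adjusted p = 0.00779) and then 2.05 (SE 0.41, limma adjusted p = 0.00837). Adamts3, a related protease, was at 1.54 to 2.35 FPKM in Control, 0.530 to 0.794 FPKM in PCOS and 1.17 to 5.08 FPKM in PCOS-MV. The change of Adamts3 was −0.82 (SE 0.14, limma adjusted p = 0.00273) and then 1.21 (SE 0.31, limma adjusted p = 0.0214), the second not called without PCOS replicate 1 (0.0518), 2 (0.0553) or 4 (0.0528) or without PCOS-MV replicate 2 (0.0530). Pcolce, which speeds removal of the tail propeptide, ranged from 67.3 to 191 FPKM in Control, 126 to 183 FPKM in PCOS and 78.3 to 197 FPKM in PCOS-MV, and was not called.

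Of the 7 genes for cross-linking, 0 were higher and 2 lower in PCOS, and 3 were higher and 1 lower in PCOS-MV than in PCOS. The share called was 28.6% and 57.1%, the first near the 27.4% of all genes and the second beside 25.7%. Loxl2, a lysyl oxidase that cross-links type IV collagen, measured 24.9, 31.2, 47.8 and 40.1 FPKM in Control, 8.83, 7.37, 11.8 and 8.59 FPKM in PCOS, and 20.7, 19.5, 40.3 and 21.8 FPKM in PCOS-MV. The PCOS libraries were below all others, and the log2 fold change was −1.84 (SE 0.20, limma adjusted p = 0.000333) and then 1.35 (SE 0.23, limma adjusted p = 0.00403). Lox, the founding member of that family, was at 21.8 to 52.9 FPKM in Control, 22.1 to 34.1 FPKM in PCOS and 15.4 to 32.5 FPKM in PCOS-MV and was not called (limma adjusted p = 0.359 and 0.147), although without PCOS-MV replicate 3 it was lower in PCOS-MV than in PCOS (log2 fold change −0.71, limma adjusted p = 0.0120).

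Small proteoglycans that coat collagen fibrils split by gene. Of the 6 listed, 2 were higher and 2 lower in PCOS, and 1 was higher and 2 lower in PCOS-MV than in PCOS, or 66.7% and 50.0% called beside 27.4% and 25.7% of all genes. Lum measured 183, 167, 101 and 142 FPKM in Control, 75.4, 72.3, 75.5 and 80.6 FPKM in PCOS, and 191, 165, 105 and 154 FPKM in PCOS-MV. It followed the direction of Col3a1, with a log2 fold change of −0.92 (SE 0.17, limma adjusted p = 0.00433) and then 0.98 (SE 0.16, limma adjusted p = 0.00380). Prelp, which ties basement membranes to the matrix beneath, measured 27.98, 37.5, 27.8 and 29.3 FPKM in Control, 90.1, 76.3, 92.4 and 84.1 FPKM in PCOS, and 38.1, 31.7, 38.3 and 31.1 FPKM in PCOS-MV. Ogn measured 42.4, 52.4, 68.0 and 76.6 FPKM in Control, 133, 105, 175 and 199 FPKM in PCOS, and 50.6, 43.4, 73.0 and 36.9 FPKM in PCOS-MV. Both were highest in the PCOS libraries, with log2 fold changes of 1.46 (SE 0.11, limma adjusted p = 4.95e-05) and 1.33 (SE 0.24, limma adjusted p = 0.00399), and of −1.28 (SE 0.10, limma adjusted p = 0.000125) and −1.57 (SE 0.25, limma adjusted p = 0.00290) in PCOS-MV vs PCOS.

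Of the 7 collagen receptors tested, 1 was higher and 3 lower in PCOS, and 2 were higher and 2 lower in PCOS-MV than in PCOS, or 57.1% in each comparison beside 27.4% and 25.7% of all genes. Ddr2, a receptor tyrosine kinase for fibrillar collagen, measured 11.3, 14.7, 15.6 and 13.3 FPKM in Control, 25.2, 25.1, 23.9 and 26.0 FPKM in PCOS, and 14.1, 17.6, 14.4 and 15.0 FPKM in PCOS-MV. It was highest in PCOS, with a log2 fold change of 0.83 (SE 0.10, limma adjusted p = 0.000445) and then −0.68 (SE 0.08, limma adjusted p = 0.000727). The integrin chains Itga1 and Itga11, named after their values were seen, went the other way, Itga1 with a mean of 21.4 ± 2.21 FPKM (SD, n = 4) in Control, 13.8 ± 1.33 FPKM in PCOS and 22.8 ± 2.09 FPKM in PCOS-MV, and Itga11 with 4.78 to 5.89, 2.19 to 2.95 and 3.55 to 5.50 FPKM. Both were lower in PCOS than in Control (limma adjusted p = 0.00269 and 0.000545) and higher in PCOS-MV than in PCOS (0.00152 and 0.00765).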

How the data were processed

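Ovarian RNA was sequenced by the authors from paired-end libraries. Their paper names HISAT2 and featureCounts, while the submitters' processing notes name STAR 2.5.1b and HTSeq 0.6.0, and the build was not given in the sources used here. The deposited values, whose columns named MG were taken as PCOS-MV, are FPKM, which the authors computed from read counts and gene length. Columns of the authors' own comparisons (fold changes, p-values) were not used. 1 line per gene was kept of 26928 transcript lines, whose values did not differ within a gene. Genes were tested as log2(FPKM + 1) in limma 3.58.1 (R 4.3.3, eBayes with trend), 4 libraries against 4, after a filter at a mean of 1 FPKM. Such fold changes are understated for low genes. The fit was tested on simulated normal values, with the spread of the PCOS libraries given to both groups. Groups of unequal spread were not simulated. Strandedness was not given in the sources used here. Sums and motifs were computed in Python 3.11.15 with pandas 2.3.3.

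The collagen genes, classes and other gene lists were chosen with earlier results of these data known. Genes described by library were all fibrillar and type IV genes tested, the other collagens called or highest in their subclass, Serpinh1, P4ha1, Plod2, Lox and Pcolce, and the 3 largest rises and falls called among maturation genes in each comparison. Alternatives covered the pseudocount, filter, scaling, shared model, prior, replicate block, a 2-fold rule and each library left out.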

Additional observations from a re-analysis of the deposited data

Results flagged for a closer look

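Of 162 groups of 4 libraries examined for 1 value far from the other 3 (Dixon's test at 95%), 7 were flagged, where chance would flag about 8.1. Among collagen genes, Col4a4 was at 14.9 FPKM in PCOS-MV replicate 4 and at 7.97 to 9.12 FPKM in the other PCOS-MV libraries. In PCOS replicate 2 Col6a1 reached 122 FPKM, while the rest of that group lay at 111 to 113 FPKM. Col14a1 was at 7.68 FPKM in Control replicate 3 and at 3.16 to 3.70 FPKM in the other Control libraries. Col13a1 was at 5.13 FPKM in PCOS-MV replicate 3 and at 2.13 to 2.51 FPKM in the other PCOS-MV libraries. The summed FPKM of the other collagens was 305 in PCOS-MV replicate 3 and 389 to 405 in the other PCOS-MV libraries. Outside the collagens, Loxl2 was at 40.3 FPKM in PCOS-MV replicate 3 and at 19.5 to 21.8 FPKM in its group, and Prelp at 37.5 FPKM in Control replicate 2 and at 27.8 to 29.3 FPKM in its group.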

How the results depend on the processing

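With an added 2-fold requirement, 5 instead of 11 collagen genes were lower in PCOS than in Control and 3 instead of 12 were higher in PCOS-MV than in PCOS. Over all 13430 genes tested, the same counts were 471 instead of 2090 and 360 instead of 1918. With each library left out in turn, 4 to 5 collagen genes were higher and 8 to 11 lower in PCOS than in Control, 9 to 16 higher and 5 lower in PCOS-MV than in PCOS, and 0 were called in PCOS-MV vs Control. Of the collagen maturation genes, 3 to 5 were higher and 9 to 13 lower in PCOS, and 11 to 16 higher and 4 to 7 lower in PCOS-MV. The other counts stayed within 1.5 times. For the alternatives other than the 2-fold rule, the shares of all genes called were not computed.

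The labels name no animal, litter or batch shared by a replicate number, so the main fit did not pair the libraries. Deviations of same-numbered libraries correlated at −0.03 to 0.02 between Control and PCOS and at −0.05 to 0.22 between Control and PCOS-MV. Between PCOS and PCOS-MV they correlated at 0.04 to 0.17, and 4 of 4 libraries correlated best with their own number. Whether the numbers pair PCOS with PCOS-MV libraries was not settled. With the replicate block, 4 collagen genes were higher and 9 lower in PCOS than in Control, and 13 higher and 5 lower in PCOS-MV than in PCOS. Col4a3, Col5a2 and Col15a1 (PCOS vs Control) and Col7a1 (PCOS-MV vs PCOS) were then not called, and Col15a1, Col18a1 and Serpinh1 were called between PCOS-MV and PCOS (limma adjusted p = 0.0394, 0.00539 and 0.0358).

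Some uncalled log2 fold changes near 0 changed sign, and the cause was not tested. In PCOS-MV vs Control, with libraries rescaled by their median ratio, Col4a2 was 0.0, Col4a5 0.01 and Col18a1 0.0. With a library left out, the same comparison ranged from −0.26 to 0.18 for Col1a1, −0.26 to 0.09 for Col1a2, −0.28 to 0.07 for Col3a1, −0.17 to 0.01 for Col5a2, −0.17 to 0.05 for Col5a3, −0.10 to 0.08 for Col4a2, −0.13 to 0.07 for Col4a5, −0.05 to 0.19 for Col6a1, −0.04 to 0.28 for Col12a1, −0.15 to 0.25 for Col18a1, −0.29 to 0.03 for Col13a1 and −0.04 to 0.35 for Col8a1. PCOS-MV vs PCOS ranged from −0.07 to 0.23 for Col1a2 and −0.18 to 0.01 for Col11a1, and PCOS vs Control from −0.14 to 0.10 for Col6a1 and −0.18 to 0.02 for Col16a1. Depth is unknown, so low genes carry an unknown counting error.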
